A study of Mus musculus with 14 samples.

Results

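These arrays followed the later hours of reactivation of Th1 rep cells, murine T helper 1 cells with a history of repeated stimulation, between 36 h and 48 h after antagomir treatment, which was followed by restimulation on plate-bound antibodies against CD3 and CD28 (3 µg/ml). The 8 arrays of these 2 time points were chosen by their labelled time, out of 14 arrays in all, and the 48 h arrays were set against the 36 h arrays with both treatments pooled and treatment as a covariate. In all, 4 groups of 2 arrays entered the comparison, namely Antagomir-31 and Antagomir-SCR at 36 h and the same treatments at 48 h. Antagomir-31 is an antisense oligonucleotide against the microRNA miR-31, and Antagomir-SCR is its unspecific control, each given at 1 µM for 1.5 h before reactivation. All groups came from naïve CD4+CD62Lhi cells of OT-II mice aged 6 to 10 weeks, whose T cells carry a transgenic receptor for an ovalbumin peptide. All were cultured with that peptide, irradiated antigen presenting cells, IL-12 and an antibody against IL-4, with IL-2 from the second stimulation on, and were taken after 4 rounds of stimulation. No group was left without an antagomir or without reactivation, so the comparison holds 2 points of a time course and no resting baseline. Whether replicates came from separate cultures is not given in the sources used here, so a p-value covers no more than how far these arrays scatter, possibly for technical reasons.

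Reactivation through the T cell receptor and CD28 starts a burst of immediate early transcription factors and cytokine genes, followed by growth and division. Cells that secrete large amounts of protein depend on the unfolded protein response, in which the sensors IRE1, ATF6 and PERK raise chaperones and folding enzymes of the endoplasmic reticulum. The integrated stress response is a related programme, in which phosphorylation of eIF2α favours translation of ATF4, which then switches on genes for amino acid synthesis and uptake. Sterols and fatty acids for new membranes are made by enzymes under the control of the SREBP factors. When signalling wanes, FOXO1 and KLF2 turn genes of quiescence and lymph node homing back on.

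Between 36 h and 48 h, genes of the endoplasmic reticulum folding machinery fell while genes of the integrated stress response rose. Of the tested genes listed for the unfolded protein response, 18 of 27 fell and 0 rose. Of those listed for the integrated stress response, 22 of 29 rose and 1 fell. Ddit3, Atf4, Atf3, Ppp1r15a and Trib3 were listed only with the latter. Genes of fatty acid and sterol synthesis, amino acid uptake, cytokine receptors and the quiescence and homing programme were called higher more often than all genes tested. The chemokine genes Ccl22, Ccl17 and Ccl5 rose, and the feedback inhibitors Spry1, Spred1 and Spry2, though not Spred2, the cytokine gene Csf2 and the inhibitory receptor gene Pdcd1 fell. Most changes were small, with a median absolute log2 change of 0.12 over all genes tested. RNA was measured in bulk, so a gene expressed in fewer cells and a gene expressed less per cell cannot be told apart.

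The deposited values are RMA intensities for 45101 probe sets on a linear scale, apparently with a separate normalization for every time point. Means per array were 232 to 235 at 36 h and 223 to 224 at 48 h, and medians were 23.4 to 23.8 and 21.8 to 22.1. The 8 arrays were therefore taken to log2 and quantile normalized together, and all intensities given below are on that common scale. The time point and the set of arrays normalized together cannot be told apart. As a sign of RNA quality, actin control probe sets at the 3′ end were set against those at the 5′ end, and this log2 ratio was 0.32 to 0.43 at 36 h and 0.37 to 0.41 at 48 h. The same ratio for Gapdh was -0.05 to -0.03 at 36 h and -0.02 to -0.01 at 48 h without overlap, and its part in the results was not tested. Each gene was represented by its brightest probe set, and the brightest 60% of 18193 genes, 10916 in number, were tested with limma. The number of arrays limits the precision, and the median standard error of a log2 change was 0.0482.

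The labelled cell type was checked against its markers. Cd3g, a chain of the T cell receptor complex, had intensities of 2698 to 2793 over the 8 arrays. Those of Cd2 were 2254 to 2655 and those of Cd28 1919 to 2157. Cd3e, another chain of the complex, had 402 to 432 at 36 h and 381 to 386 at 48 h. Cd3e was called lower (log2 change -0.10, adjusted p = 0.0446) and Cd2 higher (0.16, adjusted p = 0.00868). Cd4 had 143 to 194. Of the Th1 markers, Tbx21, which encodes T-bet, had 969 to 1210, and the chemokine receptor gene Cxcr3 had 45.5 to 59.1. Levels of different probe sets are not comparable. Ifng, the signature Th1 cytokine, was among the brightest probe sets of every array and took the same rank on all 8, so its quantile normalized value was 16095 on each and no change could be read from it. Its log2 change in the values as deposited was -0.11.

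Markers of the cells used for antigen presentation were looked for. Of the 9 measured B cell markers 2 passed the filter on low values, of 13 macrophage and monocyte markers 4, and of 10 dendritic cell markers 5. The summed intensity of the B cell markers was 244 to 257 at 36 h and 204 to 227 at 48 h, that of the macrophage and monocyte markers 319 to 349.7 at 36 h and 297 to 321 at 48 h, and that of the dendritic cell markers 394 to 422 at 36 h and 411 to 439 at 48 h. Ms4a1, Cd79a, Adgre1, Cd68 and Itgax, defining markers of these cells, had means under 20 at both times and were not tested. Pax5, Cybb and Flt3, also not tested, had 28.4, 30.5 and 26.2 at 36 h and 18.7, 20.1 and 17.9 at 48 h. Others were above the array median. Csf1r, Cd14 and Zbtb46 had 70.6, 59.6 and 54.9 at 36 h and 68.3, 55.4 and 56.1 at 48 h, without passing the test. Siglech, a dendritic cell marker, was called lower (log2 change -0.24). Cd74, the invariant chain of MHC class II, rose from 65.3 ± 1.70 to 83.9 ± 5.78 (mean ± SD over 4 arrays a time, as in all such pairs below), while H2-Ab1 had 134 ± 10.6 at 36 h and 139 ± 9.33 at 48 h and H2-Eb1 did not pass the test either (adjusted p of 0.55 and 0.53), and H2-Aa was not tested. Ighm, the heavy chain of IgM, fell from 96.2 ± 2.74 to 78.6 ± 5.36, and Lyz2, the lysozyme of myeloid cells, fell as well (log2 change -0.26). Markers of CD8 T and NK cells had a summed intensity of 3366 to 3545 at 36 h and 3425 to 3893 at 48 h, of which Klrk1 gave 3165 ± 70.8 at 36 h and 3318 ± 227 at 48 h. Klre1, an NK receptor gene of this list, rose from 184 ± 10.8 to 282 ± 8.24 (log2 change 0.62 ± 0.05 SE, adjusted p = 4.14e-05), Cd8a fell from 33.5 ± 1.27 to 29.9 ± 1.61 (log2 change -0.17 ± 0.05 SE, adjusted p = 0.0197), and Cd8b1 and Ncr1 were under 20. The part of other cell types in the results was not tested.

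In all, 4681 of 10916 genes, or 42.9%, differed between the times at an adjusted p under 0.05, of which 2516 (23.0% of the genes tested) were higher and 2165 (19.8%) lower at 48 h. The 4 arrays of each time did not overlap for 2352 genes in the direction of a rise (21.5%) and for 2049 in the direction of a fall (18.8%). A log2 change of at least 1 was reached by 13 genes upward (0.119%) and 3 downward (0.0275%), and without Antagomir-31 36 h replicate 1 by 5 downward. A change of at least 0.5, a bound added after the data were seen, was reached by 244 (2.24%) and 128 (1.17%). The split between higher and lower depended on the scaling. Of the genes called, 53.7% were higher on the quantile normalized scale, 35.8% in the values as deposited and 72.0% after median centring, and the median log2 change of all genes was 0.01, -0.05 and 0.06 on these scales. Calls that kept their direction on all 3 scales numbered 1847 upward (16.9%) and 1406 downward (12.9%). For this reason many of the counts below give, beside the calls, the number that held on the 3 scales. Where that number is not given, a count rests on the quantile normalized scale alone, and fewer may hold.

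The change over time was also tested in each treatment. Tested within a treatment with 2 arrays a time, 2451 genes were called with Antagomir-31 and 2538 with Antagomir-SCR, of which 1730 were called in both, all in the same direction. The difference of the time change between the treatments was also tested. It passed for 0 of 10916 genes (0%) in limma, where the lowest adjusted p was 1.00 and 396 genes had an unadjusted p under 0.05.

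**Figure D1:**
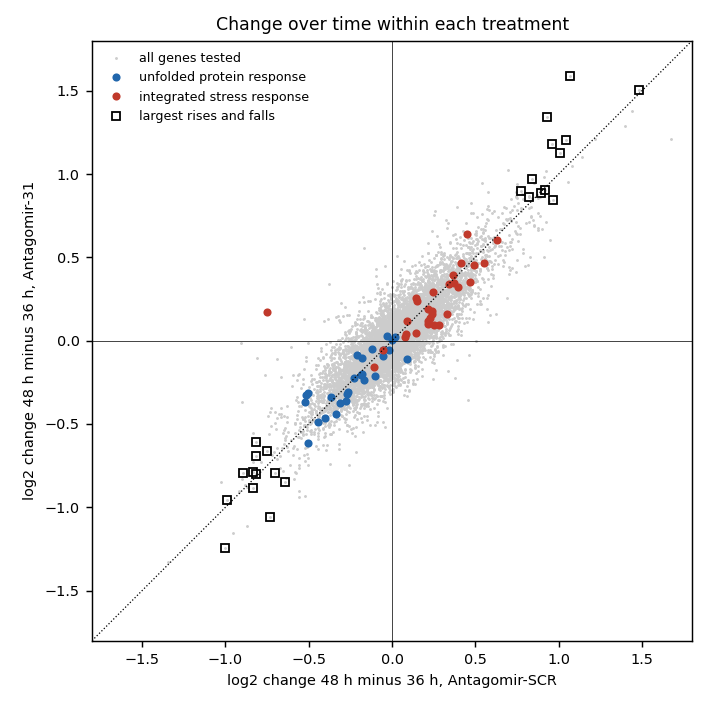
Log2 change between 36 h and 48 h with Antagomir-SCR (horizontal axis) and Antagomir-31 (vertical axis) for 10916 genes, each from 2 arrays a time. Genes of the unfolded protein response are blue, those of the integrated stress response red, squares mark the 12 largest rises and 12 largest falls, and the dotted line marks equal change. Igfbp2, for example, lies at 1.48 on the horizontal and 1.50 on the vertical axis.

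Among genes with a mean log2 intensity of at least 6 at the higher time and arrays that did not overlap, the largest rise was that of Igfbp2, a secreted binding protein for insulin-like growth factors. The 4 values of a time are given for Antagomir-31 replicates 1 and 2 and then Antagomir-SCR replicates 1 and 2, here as in the rest of the text. The intensities of Igfbp2 were 39.6, 36.7, 33.02 and 36.2 at 36 h and 103, 114, 102 and 91.04 at 48 h (log2 change 1.49 ± 0.06 SE, adjusted p = 1.39e-06). The arrays of the 2 times were far apart, and the change was nearly the same in both treatments (1.50 and 1.48 on the log2 scale).

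Evl, an Ena/VASP protein that promotes actin filament growth, was next. The intensities of Evl were 32.7, 38.7, 36.8 and 48.7 at 36 h and 104, 109.6, 101 and 77.5 at 48 h (log2 change 1.33 ± 0.14 SE, adjusted p = 0.000131). A second probe set of Evl changed by 1.62 on the log2 scale and another by 0.09. H1f2, a linker histone, rose as well. The intensities of H1f2 were 257, 235, 257 and 260.1 at 36 h and 692, 559, 512 and 476 at 48 h (log2 change 1.14 ± 0.09 SE, adjusted p = 4.76e-05). Its 2 brighter probe sets changed by 1.14 and 1.19 and the dimmest changed by -0.26. A probe set of a histone gene can share sequence with its near-identical copies, and which copies were read is uncertain.

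Of the 12 largest rises, 3 were those of the chemokine genes Ccl22, Ccl17 and Cxcl13. Ccl22 and Ccl17 encode the ligands of CCR4, a receptor of T helper 2, regulatory and skin-homing T cells. The intensities of Ccl22 were 194, 174, 198 and 196 at 36 h and 454, 396, 374 and 442 at 48 h (log2 change 1.12 ± 0.07 SE, adjusted p = 1.3e-05). The intensities of Ccl17 were 64.4, 65.6, 81.5 and 82.1 at 36 h and 133, 122, 135 and 159 at 48 h (log2 change 0.90 ± 0.06 SE, adjusted p = 1.49e-05). Both genes met the rule of no overlap, and Ccl17 was lower on both Antagomir-31 arrays than on both Antagomir-SCR arrays at each time. Cxcl13, which attracts B cells through CXCR5, rose from a mean of 35.9 to 67.6 (log2 change 0.91 ± 0.04 SE, adjusted p = 4.23e-06), while its other bright probe set changed by 0.27. Ccl22 and Ccl17 are also made by dendritic cells and macrophages, of which the marker sums are given above, and the part of these cells in the result was not tested.

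The other large rises were of membrane, lipid and protease inhibitor genes. Abcb1a, a drug efflux pump, rose from 34.4 ± 3.67 to 72.5 ± 11.5. Atp6v0d2, a subunit of the vacuolar proton pump, rose from 86.7 ± 6.78 to 182 ± 17.4. Serpinb9b, a member of the family of granzyme inhibitors, rose as well. The intensities of Serpinb9b were 2349.7, 2529.6, 2439 and 2467 at 36 h and 4288, 4739.5, 4625 and 4503 at 48 h (log2 change 0.89 ± 0.04 SE, adjusted p = 4.41e-06). Scd1, the desaturase that makes monounsaturated fatty acids, rose from 169 ± 19.3 to 316 ± 24.3, and Lpl, the lipoprotein lipase, from 44.03 ± 5.67 to 78.1 ± 2.94. Klra17, a lectin-like receptor of the Ly49 family, rose from 37.9 ± 5.16 to 67.8 ± 8.12. The 12 genes with the largest rises ranged from 0.84 to 1.49 in log2 change.

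The falls were smaller. Sdr39u1, a short-chain dehydrogenase, fell most by the same rule. The intensities of Sdr39u1 were 152, 161, 138 and 133 at 36 h and 67.6, 64.6, 67.7 and 67.8 at 48 h (log2 change -1.12 ± 0.05 SE, adjusted p = 4.25e-06). A second bright probe set of Sdr39u1 changed by -0.19. Bhlha15, also called Mist1, is a transcription factor of secretory cells downstream of XBP1. The intensities of Bhlha15 were 137, 136, 167 and 158 at 36 h and 68.3, 79.7, 84.9 and 97.05 at 48 h (log2 change -0.86 ± 0.06 SE, adjusted p = 2.2e-05). Its arrays of the 2 times did not overlap.

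Sphk1, which makes sphingosine 1-phosphate, fell from 101 ± 1.73 to 59.9 ± 2.68. Nucb2, a calcium-binding protein of the secretory pathway, fell from 266 ± 11.2 to 159 ± 13.9. Cpd, a carboxypeptidase of the Golgi, fell from 129 ± 9.76 to 69.7 ± 8.02, and Ccn1, a matricellular protein, from 116 ± 5.70 to 69.1 ± 4.64. Adh7, an alcohol dehydrogenase, fell from 92.6 ± 5.35 to 47.1 ± 2.48. Cox8c, Iffo1, Rbm12b1, the predicted gene Gm12992 and the histone gene H3c7 completed the 12, with log2 changes of -0.71 to -0.84. Further bright probe sets changed by -0.12 for Cox8c, by -0.16 for Iffo1 and by -0.32 to -1.12 for Cpd.

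**Figure D2:**
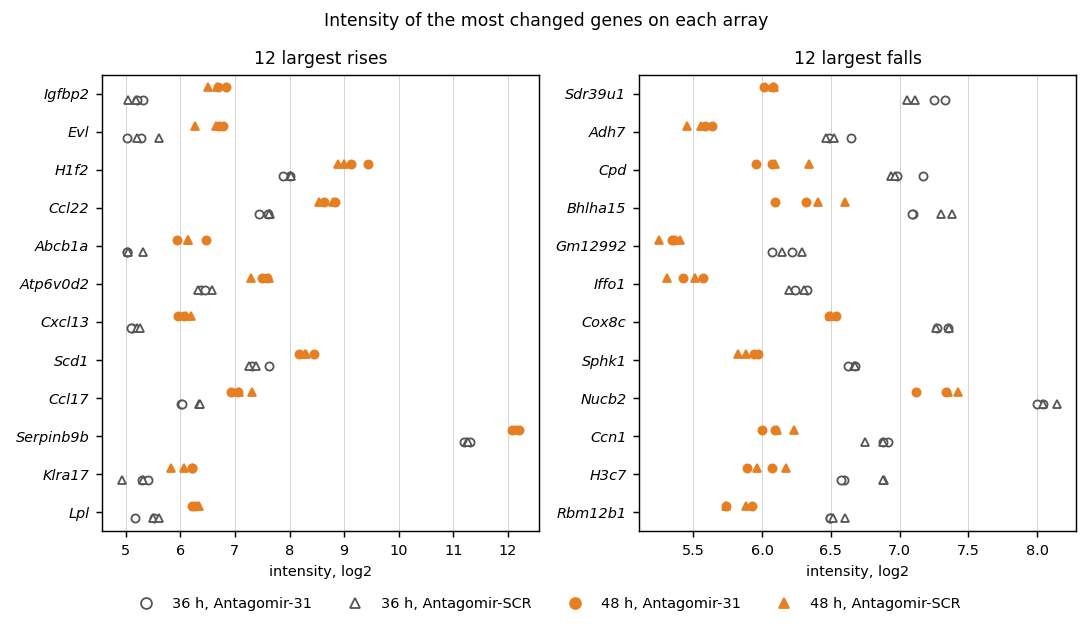
Log2 intensity of the 12 genes with the largest rises (left) and falls (right) on each of the 8 arrays. Open grey symbols are 36 h and filled orange symbols 48 h, circles are Antagomir-31 and triangles Antagomir-SCR. For each gene the 36 h and 48 h arrays do not overlap, from Igfbp2 at the top left (log2 change 1.49) to Rbm12b1 at the bottom right (-0.71).

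The called genes of the unfolded protein response list moved in 1 direction. Ddit3, Atf4, Atf3, Ppp1r15a and Trib3 were placed in the integrated stress response list instead. The contrast of the 2 lists therefore depends in part on how they were drawn. All 27 genes of the unfolded protein response list were tested, and 18 or 66.7% fell against 19.8% of all genes. The median log2 change was -0.20 against 0.01 for all genes. Of the falls, 17 held on the 3 scales. For 17 of the 27 genes the 36 h and 48 h arrays did not overlap in the direction of a fall, against 18.8% of all genes. Leaving out any 1 array gave 16 to 18 falls. Of the 18, 11 had several bright probe sets, and for 15 of the 18 every bright probe set changed downward. The 15 include the genes with only 1 bright probe set, which could not disagree.

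Creld2, a secreted factor induced by folding stress, fell most. The intensities of Creld2 were 1435, 1442, 1521 and 1594 at 36 h and 985, 899, 1098 and 1096 at 48 h (log2 change -0.56 ± 0.04 SE, adjusted p = 3.69e-05). Sdf2l1, a partner of the chaperone BiP in the endoplasmic reticulum, followed. The intensities of Sdf2l1 were 2262, 2249.6, 2359 and 2398 at 36 h and 1582, 1628, 1730.1 and 1767 at 48 h (log2 change -0.47 ± 0.03 SE, adjusted p = 2.69e-05). In both genes the arrays of the 2 times were apart by more than the spread within a time.

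Chaperone genes fell too. Hspa5 encodes BiP, the main chaperone of the endoplasmic reticulum. The intensities of Hspa5 were 9432, 8852, 9829 and 9639 at 36 h and 8116, 7511, 8172 and 8428 at 48 h (log2 change -0.23 ± 0.04 SE, adjusted p = 0.00205). Hsp90b1, which encodes GRP94, fell from 5255 ± 403 to 3885 ± 201 (log2 change -0.43), Hyou1, a nucleotide exchange factor for BiP, from 874 ± 59.5 to 642 ± 25.6 (-0.44), and Calr, which encodes calreticulin, from 5958 ± 142 to 5201 ± 128 (-0.20). The co-chaperones Dnajb9, Dnajc3 and Dnajb11 changed by -0.42, -0.41 and -0.34, and the disulfide isomerases Pdia4, Pdia6 and Pdia3 by -0.39, -0.30 and -0.20, all past the test.

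Manf, a secreted factor retained in the endoplasmic reticulum, fell from 4809 ± 142 to 3768 ± 104 (log2 change -0.35 ± 0.04 SE, adjusted p = 0.000118). Ern1, the gene of the sensor IRE1, fell from 164 ± 14.7 to 131 ± 9.26, although its other bright probe set changed by 0.10. Xbp1 and Atf6, genes of other upstream factors, did not pass the test. Xbp1, whose mRNA IRE1 splices, had means of 3343 ± 13.9 at 36 h and 3346 ± 70.2 at 48 h (log2 change 0.00, adjusted p = 0.99), and the sensor gene Atf6 had 148 ± 6.58 at 36 h and 133 ± 7.77 at 48 h (log2 change -0.15, adjusted p = 0.0503). The arrays do not separate the spliced from the unspliced form of Xbp1. Sel1l, Syvn1, Edem2, Ero1b, Herpud1, Sec11c and Ssr1 did not pass either.

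The promoters of the list were searched for motifs. The ER stress response element, bound by NF-Y together with ATF6 or XBP1, reads CCAAT, then 9 bases, then CCACG, and it was added to the motifs searched after the data were seen. Over 250 bases before to 50 after the start and on either strand, it was found in 9 of 22 promoters of the list that RefSeq sequences covered (40.9%), against 14 of 8865 tested genes with a promoter (0.158%). Its first part alone, the CCAAT box, was in 77.3% of the list and 42.6% of all. The list was drawn from known genes of this response, so its share of the element is no separate evidence for the response. The same holds for the motif shares of the other lists below. Of the 9 genes with the element, 7 fell, and Ero1b and Syvn1 did not pass the test. The windows that follow are from RefSeq on GRCm38.p6, read on the strand of the gene, with the element in capitals, and are those of the 7 that fell. Of the 3 bright probe sets of Canx, which encodes calnexin, 2 changed downward and the other by 0.03.
Creld2, chr15:88819504-88819554, plus strand: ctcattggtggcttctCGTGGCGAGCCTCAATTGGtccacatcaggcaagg
Hsp90b1, chr10:86705517-86705567, minus strand: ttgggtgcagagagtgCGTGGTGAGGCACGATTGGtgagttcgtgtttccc
Dnajc3, chr14:118937811-118937861, plus strand: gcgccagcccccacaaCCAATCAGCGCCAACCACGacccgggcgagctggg
Pdia6, chr12:17266475-17266525, plus strand: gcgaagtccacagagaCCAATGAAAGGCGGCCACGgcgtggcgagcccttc
Canx, chr11:50325784-50325834, minus strand: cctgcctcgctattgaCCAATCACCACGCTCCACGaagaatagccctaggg
Hspa5, chr2:34772009-34772059, plus strand: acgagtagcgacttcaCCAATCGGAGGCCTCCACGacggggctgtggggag
Calr, chr8:84847059-84847109, minus strand: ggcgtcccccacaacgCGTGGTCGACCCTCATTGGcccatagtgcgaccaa
In Creld2, Hsp90b1 and Calr the element lies on the opposite strand, so that it reads as CGTGG, 9 bases and ATTGG. The elements shown end between 46 bases (Hspa5) and 143 bases (Calr) before the start, and Hsp90b1 has a second match, which ends 193 bases before it. A match of letters does not show that a factor was bound.

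The integrated stress response moved the other way. Of its 29 genes, all of which were tested, 22 or 75.9% rose against 23.0% of all genes, 21 of them on the 3 scales, and the median log2 change was 0.20. Leaving out any 1 array gave 20 to 22 rises, and within Antagomir-31 alone there were 13. For 17 of the 29 genes the arrays of the 2 times did not overlap in the direction of a rise, against 21.5% of all genes. This list shares members with the lists of amino acid transporters and of one-carbon and serine metabolism described below. It also shares Herpud1 with the list of the unfolded protein response.

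The genes that rose include transcription factors of the response. Ddit3, which encodes CHOP, was called higher. The intensities of Ddit3 were 252, 277, 250.4 and 243 at 36 h and 433, 391, 332 and 342 at 48 h (log2 change 0.54 ± 0.06 SE, adjusted p = 0.000132). Cebpb, a partner of ATF4, rose from 223 ± 18.2 to 310.0 ± 26.8 (log2 change 0.47 ± 0.05 SE, adjusted p = 0.00017), and Atf3 from 619 ± 79.6 to 729.6 ± 45.3, with overlapping arrays. Atf4 itself rose from 3746 ± 214 to 4204 ± 179 (log2 change 0.17 ± 0.05 SE, adjusted p = 0.0164), a call that did not hold on the 3 scales.

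Metabolic targets made up much of the rest. Pck2, the mitochondrial phosphoenolpyruvate carboxykinase, rose most. The intensities of Pck2 were 612, 588, 563 and 564 at 36 h and 891, 937, 882 and 858 at 48 h (log2 change 0.62 ± 0.04 SE, adjusted p = 1.07e-05). A second, dimmer probe set of Pck2 changed by -0.06. Psph, the last enzyme of serine synthesis, rose from 1179 ± 77.4 to 1675 ± 60.1 (log2 change 0.51 ± 0.04 SE, adjusted p = 3.48e-05), Gpt2, a mitochondrial alanine transaminase, from 233 ± 22.97 to 309 ± 23.7, and Asns, the asparagine synthetase, from 2551 ± 71.4 to 3074 ± 102 (log2 change 0.27).

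Regulators of the pathway rose as well. Ppp1r15a, which encodes GADD34 and directs removal of the phosphate from eIF2α, rose from 90.2 ± 4.88 to 123 ± 8.22 (log2 change 0.44 ± 0.05 SE, adjusted p = 0.000229). Trib3, a pseudokinase that restrains ATF4, rose from 277 ± 25.9 to 319 ± 30.00, and Nupr1, a small stress protein, from 438 ± 44.4 to 570.0 ± 53.5. The exception was Chac1, which degrades glutathione. The intensities of Chac1 were 250.1, 271, 247 and 246 at 36 h and 229, 238, 221 and 236 at 48 h (log2 change -0.13, adjusted p = 0.0308), a fall that did not hold on the 3 scales. Sesn2 had the widest error of the list (log2 change -0.29 ± 0.29 SE), and Ddit4, Atf5, Cth, Slc7a1 and Herpud1 did not pass the test.

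**Figure D3:**
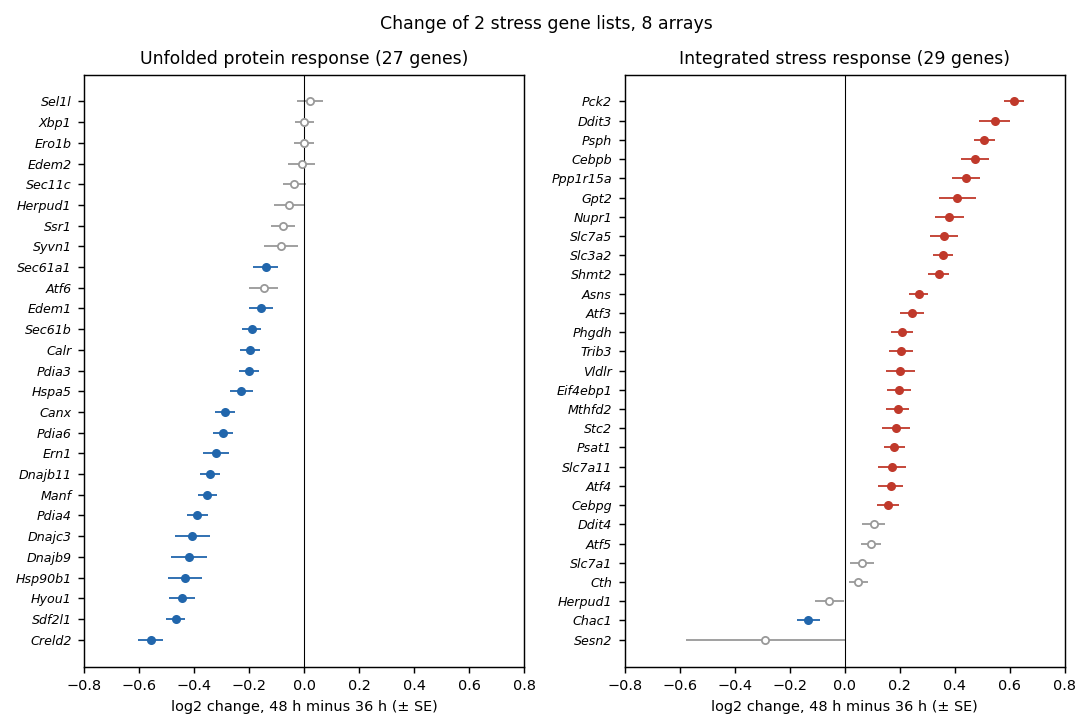
Log2 change from 36 h to 48 h, with its standard error over 8 arrays, of 27 genes of the unfolded protein response (left) and 29 of the integrated stress response (right). Blue points were called lower, red points higher, and open grey points did not pass the test. On the left 18 points are blue and none red, and on the right 22 are red and 1, Chac1, is blue.

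The amino acid response element TGATGCAA, a site of ATF4 and C/EBP dimers, was found in 6 of 26 promoters of the list (23.1%) and in 0.722% of all tested genes with a promoter. This element, 1 of 18 motifs searched, was also in 4 of 189 promoters of genes that rose by at least 0.5 (2.12%). It was in 0 of 103 promoters of genes that fell by as much (0%), too few promoters to tell 0% from 0.722%. The difference was not tested. Many response elements of these genes differ from these letters or lie outside the window. The matches of 5 of the 6 genes are given here on the strand of the gene and in capitals, because these genes were called. In each the element lies on the opposite strand and reads TTGCATCA.
Nupr1, chr7:126625557-126625596, minus strand: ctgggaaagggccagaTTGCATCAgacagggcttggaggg
Atf3, chr1:191183420-191183459, minus strand: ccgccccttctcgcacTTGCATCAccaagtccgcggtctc
Vldlr, chr19:27216804-27216843, plus strand: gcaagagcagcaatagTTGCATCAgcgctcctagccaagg
Slc7a11, chr3:50443637-50443676, minus strand: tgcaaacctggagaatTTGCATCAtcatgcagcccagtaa
Chac1, chr2:119351033-119351072, plus strand: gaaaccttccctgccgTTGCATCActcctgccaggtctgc
Atf3, Nupr1, Vldlr and Slc7a11 rose, Chac1 fell, and the gene not shown, Herpud1, did not pass the test. Slc7a11 has 2 matches in its promoter, of which the one nearer to the start is shown.

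Genes of amino acid uptake and of serine and glycine synthesis were called in 1 direction. Of 11 tested amino acid transporters, 6 rose (54.5% against 23.0% of all genes) and 0 fell, all 6 on the 3 scales. Slc7a3, a carrier of arginine and lysine, rose most. The intensities of Slc7a3 were 763, 759, 699 and 695 at 36 h and 1067, 1094, 950.4 and 1017 at 48 h (log2 change 0.50 ± 0.04 SE, adjusted p = 2.64e-05). Slc7a5 and Slc3a2, the light and heavy chain of the large neutral amino acid transporter, rose from 1159.6 ± 88.9 to 1487 ± 93.8 and from 1171 ± 71.96 to 1501 ± 84.04. Of 14 genes of one-carbon and serine metabolism, 6 rose (42.9%) and 0 fell. Among the rises were Phgdh and Psat1, the first enzymes of serine synthesis (0.21 and 0.18 in log2 change). The mitochondrial folate enzymes Shmt2 and Mthfd2 changed by 0.34 and 0.19, although the dimmest of 4 bright probe sets of Shmt2 changed by -0.06. The aminoacyl-tRNA synthetases, which charge tRNAs with amino acids, showed fewer calls than all genes, with 3 of 20 higher and 1 lower, and a median log2 change of 0.09.

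Genes of lipid synthesis were often higher at 48 h. Of 18 genes of fatty acid synthesis, 8 rose (44.4% against 23.0% of all genes) and 0 fell. Of the rises 6 held on the 3 scales, and the median log2 change of the list was 0.10. After Scd1, the elongase gene Elovl6 rose most. The intensities of Elovl6 were 76.4, 72.3, 68.1 and 67.3 at 36 h and 109.8, 118, 111 and 89.1 at 48 h (log2 change 0.59 ± 0.07 SE, adjusted p = 0.000198). Acss2, which makes acetyl-CoA from acetate, rose from 57.4 ± 5.34 to 78.5 ± 12.3, and Fasn, the fatty acid synthase, from 384 ± 17.4 to 452 ± 23.5. The desaturases Fads2 and Scd2 changed by 0.38 and 0.36, with 1 of 3 bright probe sets of Scd2 at -0.01.

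Of 22 genes of sterol metabolism, 9 rose (40.9% against 23.0% of all genes) and 2 fell (9.09% against 19.8%). Of these 8 and 1 held on the 3 scales. Abcg1, an exporter of cholesterol, was dim. The intensities of Abcg1 were 31.9, 23.9, 28.7 and 26.5 at 36 h and 50.5, 52.2, 52.4 and 49.7 at 48 h (log2 change 0.89 ± 0.08 SE, adjusted p = 6.14e-05). The enzymes Tm7sf2, Nsdhl, Hsd17b7 and Lss act late in the pathway, after squalene, and changed by 0.71, 0.49, 0.33 and 0.32, with 1 of 3 bright probe sets of Hsd17b7 at -0.05. Mvd and Fdps, of the early pathway, changed by 0.30 and 0.29. Hmgcs1, the enzyme at the start of the pathway, did not pass the test, with means of 2251 ± 139 at 36 h and 2341 ± 140.3 at 48 h (adjusted p = 0.26). The regulator Srebf2 fell from 643 ± 19.2 to 586 ± 18.2, a call that did not hold on the 3 scales, and Srebf1 had 505 ± 22.2 at 36 h and 515 ± 17.8 at 48 h (adjusted p = 0.62). The sterol response element TCACNCCAC, searched on both strands, was in 1 of 17 promoters of the list, that of Hmgcs1, and in 1.43% of all.

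Genes of quiescence and homing formed a further group in which rises were common. Of 35 tested, 15 rose (42.9% against 23.0% of all genes) and 5 fell (14.3% against 19.8%). Of these 12 and 2 held on the 3 scales, and the median log2 change of the list was 0.12. Within Antagomir-SCR alone 8 rose. Pik3ip1, an inhibitor of PI3K found on resting T cells, rose most but was dim. The intensities of Pik3ip1 were 21.98, 19.9, 20.4 and 17.5 at 36 h and 37.1, 43.99, 41.4 and 37.2 at 48 h (log2 change 1.00 ± 0.07 SE, adjusted p = 2.72e-05). All 36 h arrays lay near 20 and all 48 h arrays near 40.

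The glucose-sensing arrestins Arrdc4 and Txnip rose together. The intensities of Arrdc4 were 32.4, 36.4, 34.1 and 29.2 at 36 h and 67.7, 55.9, 64.2 and 57.2 at 48 h (log2 change 0.89 ± 0.08 SE, adjusted p = 6.13e-05). Txnip rose from 366 ± 18.8 to 469.7 ± 69.00, with overlapping arrays. Receptors that guide T cells through lymphoid organs rose as well. Ccr7, the receptor for lymph node entry, was one of them. The intensities of Ccr7 were 272, 263, 219 and 236 at 36 h and 402, 417, 292 and 334 at 48 h (log2 change 0.54 ± 0.06 SE, adjusted p = 0.000139). S1pr1, the receptor for exit, rose from 60.4 ± 3.18 to 82.6 ± 9.71 (log2 change 0.45 ± 0.08 SE, adjusted p = 0.00201). At 48 h both were higher on the Antagomir-31 than on the Antagomir-SCR arrays, as Ccr7 was at 36 h, and the difference in time change between the treatments had an adjusted p of 1.00 for each.

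Klf2 and Foxo1, regulators of this programme, rose by little. Klf2 was near the bottom of the tested range, at 24.98 ± 2.45 at 36 h and 29.7 ± 3.23 at 48 h (log2 change 0.25, adjusted p = 0.0424), and its call did not hold on the 3 scales. Foxo1 rose from 137 ± 3.57 to 154 ± 6.78 (log2 change 0.17 ± 0.04 SE, adjusted p = 0.00841). Il7r, the receptor for the survival cytokine IL-7, rose from 672 ± 43.3 to 772 ± 17.04 with 1 probe set, while the dimmer one changed by -0.13. Tsc22d3, which encodes the glucocorticoid-induced protein GILZ, and Klhl24 changed by 0.44 and 0.58, with 1 probe set of Tsc22d3 at -0.11. Bach2, a repressor of effector genes, fell from 614 ± 34.2 to 490.1 ± 21.9, so the list did not move as a block. A FOXO site (GTAAACA) was in 5 of 31 promoters of the list (16.1%) and in 2.98% of all. Of these 5 genes, Sesn1 and Txnip rose, Yod1 fell, and Btg1 and Hbp1 did not pass the test.

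**Figure D4:**
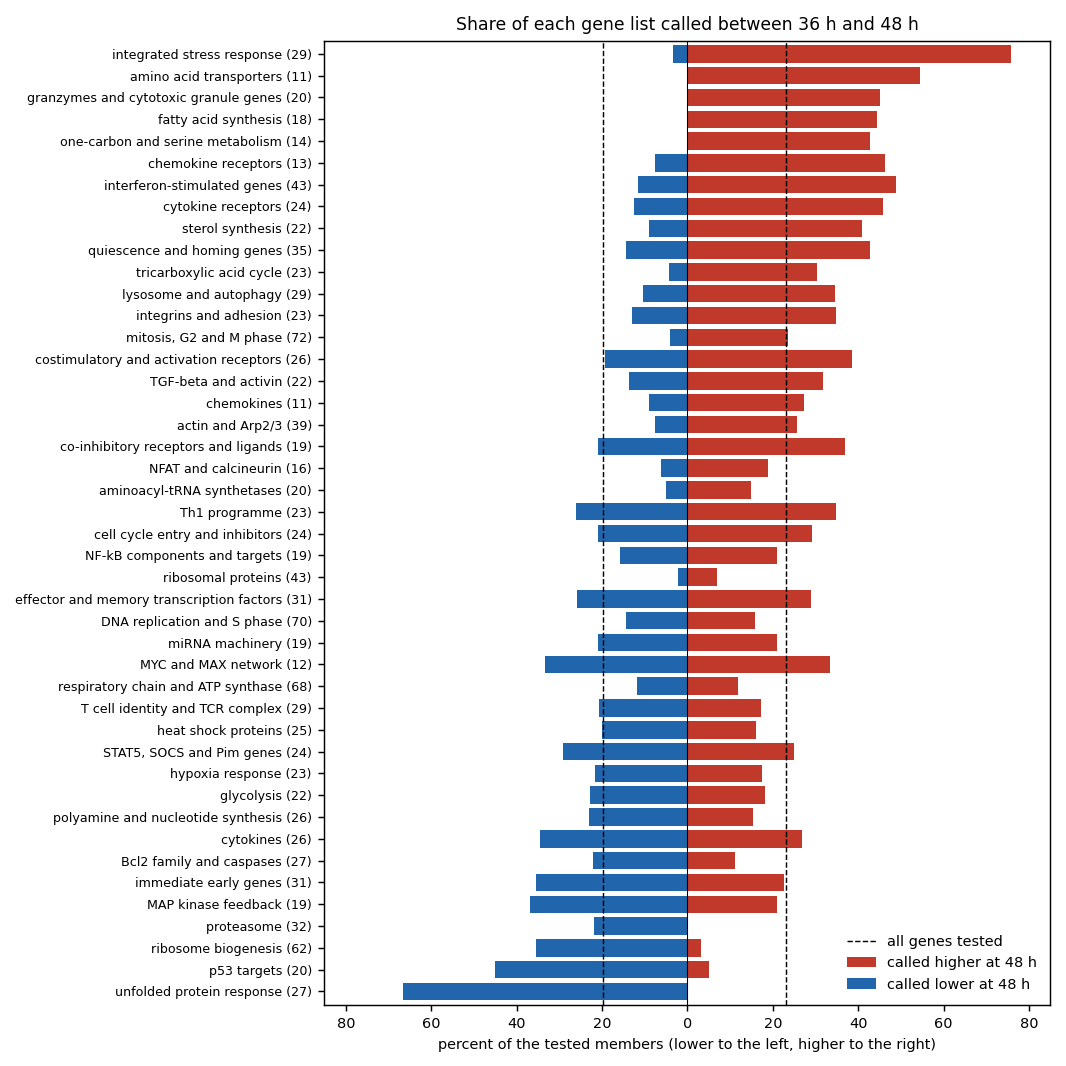
Share of the tested members of each gene list that were called higher (red, to the right) or lower (blue, to the left) at 48 h, for 44 lists with at least 10 tested genes, whose number is in brackets. Dashed lines mark the shares among all 10916 genes, 23.0% higher and 19.8% lower. The integrated stress response (75.9% higher) and the unfolded protein response (66.7% lower) stand at the ends.

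Genes that follow receptor signalling changed in both directions. Of 31 immediate early genes, 11 fell (35.5% against 19.8% of all genes) and 7 rose (22.6% against 23.0%), each on the 3 scales. Egr2, a factor that limits the response, fell. The intensities of Egr2 were 2175, 1938, 2500.3 and 2220.1 at 36 h and 1785, 1621, 1772 and 1887 at 48 h (log2 change -0.32 ± 0.06 SE, adjusted p = 0.00263). Fosl2, Fosl1 and Jund, partners in AP-1, changed by -0.46, -0.38 and -0.35, whereas Jun rose from 157 ± 18.2 to 212 ± 19.4 and Batf3 changed by 0.24. Egr1 and Nr4a1 did not pass the test (adjusted p of 0.0626 and 0.18).

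Feedback inhibitors of the MAP kinase pathway fell in 7 of 19 cases (36.8% against 19.8% of all genes). They rose in 4 (21.1% against 23.0%), and 6 falls and 2 rises held on the 3 scales. Spry1, a Sprouty protein induced by ERK signalling, fell most. The intensities of Spry1 were 522, 518, 568 and 495 at 36 h and 346, 348, 348 and 377 at 48 h (log2 change -0.57 ± 0.05 SE, adjusted p = 6e-05). Spred1 fell from 196 ± 4.47 to 139.7 ± 7.51, with 1 of its 4 bright probe sets at 0.00, and Spry2 from 293 ± 17.8 to 237 ± 5.56. Spred2 rose from 112 ± 1.37 to 137 ± 3.97 (log2 change 0.30 ± 0.04 SE, adjusted p = 0.000327), while its 4 dimmer probe sets changed by -0.38 to 0.14. Of the dual specificity phosphatases, Dusp5 and Dusp2 changed by -0.28 and -0.27, and Dusp10, Dusp14 and Dusp16 by 0.29, 0.26 and 0.19, of which the first and the last did not hold on the 3 scales. Of 19 genes of the NF-kB pathway, 4 rose (21.1%) and 3 fell (15.8%), both below the shares of all genes. The falls were those of Nfkbid, Rel and Nfkbie (-0.45, -0.32 and -0.23). Of 16 genes of NFAT and calcineurin, 3 rose (18.8%), among them the calcineurin inhibitor Rcan1 (0.27), and 1 fell (6.25%). Both were below the shares of all genes.

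Cytokine genes split as well, with 7 of 26 higher (26.9%) and 9 lower (34.6%), against 23.0% and 19.8% of all genes. Csf2, which encodes GM-CSF, fell. The intensities of Csf2 were 7938, 7598, 8116 and 8047 at 36 h and 5863, 5418, 6060.0 and 6801 at 48 h (log2 change -0.40 ± 0.05 SE, adjusted p = 0.000424). Lta, which encodes lymphotoxin alpha, rose. The intensities of Lta were 2701, 2383, 2582 and 2585 at 36 h and 3834, 3490.0, 3282 and 3998 at 48 h (log2 change 0.51 ± 0.07 SE, adjusted p = 0.00048). The arrays of the 2 times did not overlap for either gene.

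Ltb, the partner of lymphotoxin alpha, changed by 0.28. The TNF family ligands Tnf, Fasl, Tnfsf14, which encodes LIGHT, and Cd40lg fell. Fasl did so from 1382 ± 37.7 to 1092 ± 9.17 (log2 change -0.34 ± 0.04 SE, adjusted p = 0.000144), Tnfsf14 from 267 ± 11.97 to 195 ± 16.4 (-0.46) and Cd40lg, which was dim, from 42.1 ± 1.52 to 32.1 ± 1.05 (-0.39). Tnf fell from 1024 ± 140.0 to 857 ± 122 (log2 change -0.26), with overlapping arrays, and both Antagomir-31 arrays were below both Antagomir-SCR arrays at each time. Il2, the T cell growth factor, spread widely at 48 h. The intensities of Il2 were 182, 156, 195 and 209 at 36 h and 191, 100.1, 125 and 188 at 48 h (log2 change -0.34 ± 0.19 SE, adjusted p = 0.17).

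The chemokine list, which does not include Cxcl13, had 3 of 11 tested genes higher and 1 lower, against 23.0% and 19.8% of all genes. Ccl5, which encodes RANTES, rose together with Ccl22 and Ccl17. The intensities of Ccl5 were 3268, 3033, 3654 and 3649 at 36 h and 5707, 5210.3, 5132 and 5742 at 48 h (log2 change 0.68 ± 0.06 SE, adjusted p = 6.81e-05). The bright genes Ccl3, Ccl4 and Xcl1 changed little (-0.06, -0.09 and -0.02), and of these only Ccl4 passed the test, though not on the 3 scales. Among 13 chemokine and migration receptors, 6 rose (46.2%) and 1 fell (7.69%), 4 and 1 of these on the 3 scales. Ccr2, which guides cells to inflamed tissue, rose from 299 ± 45.4 to 432 ± 23.5 (log2 change 0.54 ± 0.06 SE, adjusted p = 0.000179), and Cxcr6, a receptor of tissue-resident T cells, fell from 1212 ± 47.4 to 924 ± 54.5 (log2 change -0.39 ± 0.05 SE, adjusted p = 0.00037).

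The Th1 programme showed no common direction, with 8 of 23 genes higher (34.8%) and 6 lower (26.1%), against 23.0% and 19.8% of all genes. Tbx21 fell slightly. The intensities of Tbx21 were 1204, 1209.8, 1162 and 1196 at 36 h and 1048, 969, 998 and 1082 at 48 h (log2 change -0.22 ± 0.04 SE, adjusted p = 0.00365). The receptors for IL-12 and IL-18, Il12rb2 and Il18r1, changed by 0.25 and 0.29, past the test. Twist1, a factor that marks repeatedly activated Th1 cells, and the dim T-box gene Eomes changed by -0.31 and -0.30, although a second probe set of Eomes changed by 0.08.

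Of 20 genes of cytotoxic granules, 9 rose (45.0% against 23.0% of all genes) and 0 fell, with 5 of the rises on the 3 scales. Gzma, which encodes granzyme A, rose. The intensities of Gzma were 5076, 5214, 5210.3 and 5312 at 36 h and 6952, 6707, 6895 and 7041 at 48 h (log2 change 0.41 ± 0.03 SE, adjusted p = 5.2e-05). Gzmd and Gzme, which share much of their sequence and were read by probe sets that can detect related transcripts, changed by 0.38 and 0.40. Gzmb was near the top of the array at both times, with 13822 ± 124 at 36 h and 14196 ± 178 at 48 h (adjusted p = 0.38), and Prf1, which encodes perforin, rose from 3147 ± 155 to 3489 ± 118 with overlapping arrays, though not on the 3 scales.

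**Figure D5:**
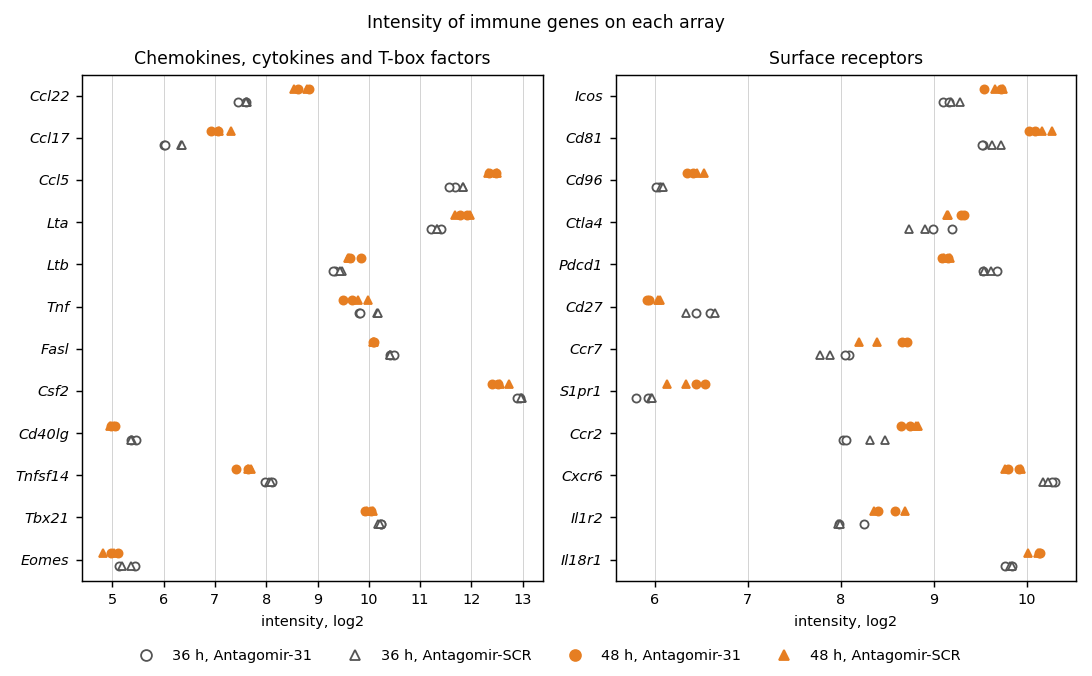
Log2 intensity of 24 immune genes on each of the 8 arrays, with open grey symbols for 36 h, filled orange symbols for 48 h, circles for Antagomir-31 and triangles for Antagomir-SCR. Ccl22, Ccl17, Ccl5, Icos, Cd81 and Ccr7 lie to the right at 48 h, and Fasl, Csf2, Tnfsf14, Pdcd1, Cd27 and Cxcr6 to the left.

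Receptors of costimulation and inhibition changed one by one. Icos, a costimulatory receptor of the CD28 family, rose. The intensities of Icos were 547, 573, 620.2 and 579 at 36 h and 840.2, 744, 805 and 856 at 48 h (log2 change 0.48 ± 0.05 SE, adjusted p = 0.000131). Cd27, a TNF receptor of early activated cells, fell. The intensities of Cd27 were 86.8, 96.7, 80.5 and 100.2 at 36 h and 60.5, 61.3, 65.6 and 66.3 at 48 h (log2 change -0.52 ± 0.07 SE, adjusted p = 0.000514). The tetraspanin Cd81 rose from 775 ± 51.02 to 1126 ± 86.3 (log2 change 0.54 ± 0.04 SE, adjusted p = 3.47e-05). Over the list of 26 costimulatory and activation receptors, 10 rose (38.5%) and 5 fell (19.2%), against 23.0% and 19.8% of all genes. Of these 8 and 2 held on the 3 scales.

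Pdcd1, which encodes PD-1, fell. The intensities of Pdcd1 were 819, 735, 745 and 783 at 36 h and 569, 543, 553 and 576 at 48 h (log2 change -0.46 ± 0.05 SE, adjusted p = 0.000115). Its ligand gene Cd274 also fell, from 406 ± 12.6 to 315 ± 10.9 (-0.37). Ctla4 rose from 499 ± 67.3 to 599 ± 37.5, with overlapping arrays, and Cd96, Klrg1 and Cd160 changed by 0.38, 0.33 and 0.30. Lag3 and Havcr2 did not pass the test (adjusted p of 0.0578 and 0.49). In all, 7 of 19 co-inhibitory receptors and ligands rose (36.8%) and 4 fell (21.1%), each on the 3 scales. Of all genes 23.0% rose and 19.8% fell.

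Of 24 cytokine receptor genes, 11 rose (45.8% against 23.0% of all genes), all on the 3 scales. Falls numbered 3 (12.5% against 19.8%), 1 of them on the 3 scales. Tgfbr3, a coreceptor for TGF-beta, rose from 277 ± 15.5 to 407 ± 16.1 (log2 change 0.56 ± 0.05 SE, adjusted p = 7.2e-05), while a dimmer probe set changed by -0.21. Il1r2, a decoy receptor for IL-1, rose from 265 ± 26.2 to 364 ± 39.8 (0.46), and Il1r1, the signalling receptor, changed by -0.27, past the test. Il2ra, the alpha chain of the IL-2 receptor, was uncertain, since the brighter probe set changed by -0.17 and the other by 0.35. The IL-2 induced inhibitors Cish and Socs3 fell from 1529 ± 79.1 to 1278 ± 60.1 and from 414 ± 37.5 to 338 ± 35.2.

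Transcription factors of effector and memory cells rose in 9 (29.0%) and fell in 8 (25.8%) of 31 cases, against 23.0% and 19.8% of all genes. Epas1, which encodes HIF-2 alpha, rose most. The intensities of Epas1 were 78.5, 73.8, 55.9 and 60.4 at 36 h and 108, 115, 103 and 97.05 at 48 h (log2 change 0.67 ± 0.06 SE, adjusted p = 6.18e-05). Ikzf3, which encodes Aiolos, rose from 64.8 ± 3.77 to 89.5 ± 6.74 with its brighter probe set, while the other changed by -0.19. In the MYC and MAX network, Myc had means of 979.7 ± 52.3 at 36 h and 975 ± 59.98 at 48 h (adjusted p = 0.91), the repressors Mnt, Mxd3, Mxd4 and Mxi1 rose (0.25, 0.21, 0.21 and 0.20), and their shared partner Max fell from 181 ± 10.6 to 153 ± 4.48.

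Of 43 interferon-stimulated genes, 21 rose (48.8% against 23.0% of all genes) and 5 fell (11.6% against 19.8%). Of these 14 and 3 held on the 3 scales. The guanylate-binding proteins, GTPases induced by IFN-γ, were among the rises. The intensities of Gbp3 were 107, 116, 104 and 118 at 36 h and 167, 164, 164 and 157 at 48 h (log2 change 0.55 ± 0.05 SE, adjusted p = 6.96e-05). Gbp6 rose from 167 ± 10.8 to 257 ± 33.2 and Gbp2 from 127 ± 6.07 to 182 ± 20.2. The antigen processing genes Psmb9, Tap2 and Tapbp changed by 0.38, 0.25 and 0.28. The antiviral synthetases Oas2 and Oas3, which were dim, went the other way. The intensities of Oas2 were 36.6, 36.7, 37.98 and 38.4 at 36 h and 23.2, 23.6, 24.3 and 26.2 at 48 h (log2 change -0.62 ± 0.04 SE, adjusted p = 1.24e-05). Irf1 had means of 217 ± 12.2 at 36 h and 222 ± 11.6 at 48 h (adjusted p = 0.68). The IRF core GAAANNGAA, searched on both strands, was in 45.7% of 35 promoters of this list and 8.2% of all.

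Genes of growth and division changed less. Of 62 genes of ribosome biogenesis, 22 fell (35.5%) and 2 rose, but only 12 falls held on the 3 scales, and the median log2 change was -0.08, -0.13 as deposited and -0.02 after median centring. Rrs1 and Noc3l, factors of the large ribosomal subunit, changed by -0.25 and -0.26, with a second probe set of Noc3l at 0.02. Of 43 ribosomal protein genes, 3 rose and 1 fell. None of 32 proteasome genes rose and 7 fell (21.9%), near the 19.8% of all genes.

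Of 72 genes of mitosis, 17 rose (23.6%) and 3 fell, 9 and 1 on the 3 scales, which is close to the 23.0% of all genes for the rises and below the 19.8% for the falls. The kinase genes Aurkb and Plk1 rose from 387 ± 30.98 to 461 ± 24.3 and from 333 ± 12.7 to 377 ± 7.70, and Mki67, a marker of cycling cells, had means of 1303 ± 40.2 at 36 h and 1378 ± 99.7 at 48 h (adjusted p = 0.22). The CHR element TTTGAA was in 71.2% of 59 promoters of the list and 14.1% of all. Of 70 genes of DNA replication, 11 rose (15.7%) and 10 fell (14.3%), both below the shares of all genes, and 8 and 5 held on the 3 scales. Pcna and Mcm2 of this list did not pass the test (adjusted p of 0.62 and 0.34). The largest fall of the replication list was that of Gins2 (-0.63), whose second bright probe set changed by 0.07.

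Genes of cell death and the p53 pathway were next. Of 20 p53 targets 9 fell (45.0% against 19.8% of all genes) and 1 rose (5% against 23.0%), but only 4 falls held on the 3 scales. Bcl2l11, which encodes the death inducer BIM, fell. The intensities of Bcl2l11 were 178, 147, 212 and 171 at 36 h and 126, 118, 112 and 129 at 48 h (log2 change -0.54 ± 0.09 SE, adjusted p = 0.00191). The survival gene Bcl2 rose from 805 ± 65.6 to 994 ± 35.9 (log2 change 0.31 ± 0.05 SE, adjusted p = 0.000813), with 4 of its 5 bright probe sets in that direction.

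Other metabolic and structural lists are given by their counts, to be read beside the 23.0% of all genes called higher and the 19.8% called lower. These are counts on the quantile normalized scale. On the 3 scales, for example, 1 of the 8 rises of the respiratory chain and 6 of the 10 of actin and Arp2/3 held. Of 22 genes of glycolysis 4 rose (18.2%) and 5 fell (22.7%), and of 23 hypoxia genes 4 (17.4%) and 5 (21.7%). Of 68 genes of the respiratory chain 8 rose (11.8%) and 8 fell (11.8%). Of 39 genes of actin and Arp2/3, 10 rose and 3 fell, and of 23 integrin and adhesion genes 8 rose and 3 fell. Of the 29 lysosome and autophagy genes, 10 rose, among them Ctss and Sqstm1 (0.47 and 0.38), and 3 fell. Of 19 genes of the microRNA machinery 4 rose and 4 fell, among the latter the processing enzyme Drosha (-0.31, with 1 of 3 bright probe sets at 0.12). Of 22 genes of TGF-beta and activin signalling, 7 rose and 3 fell. The list of T cell identity genes had 5 rises and 6 falls among 29, that of STAT5, SOCS and Pim genes 6 and 7 among 24, that of heat shock proteins 4 and 5 among 25, and that of polyamine and nucleotide synthesis 4 and 6 among 26. Genes of the tricarboxylic acid cycle rose in 7 (30.4%) and fell in 1 (4.35%) of 23 cases. Those of cell cycle entry rose in 7 (29.2%) and fell in 5 (20.8%) of 24. Those of the Bcl2 family and caspases rose in 3 (11.1%) and fell in 6 (22.2%) of 27. Of the markers of regulatory T cells, 1 of 6 tested rose and 3 fell, and of those of Th2 cells 2 of 4 rose, namely Epas1 and Gata3, and 0 fell.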

How the data were processed

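Total RNA was hybridised to Affymetrix MG 430 2 arrays. The authors deposited RMA intensity values on a linear scale, which per the labels came from GCOS and the affy package of R (versions not given in the sources used here), seemingly normalized within each time point. From these, log2 intensities of 8 arrays were quantile normalized and tested with limma 3.58.1 (R 4.3.3), with treatment as covariate and Benjamini-Hochberg adjustment, calls being made at an adjusted p under 0.05. Probe sets were named from the platform annotation, and 34945 of 45101 had 1 gene symbol, 932 several and 9160 none, beside 64 controls. Each gene was represented by its brightest probe set (mean over the 8 arrays), and the brightest 60% were tested. The 55 gene lists, 17 motifs and the choice of members were made with earlier results of these data known. Named were the 12 largest called changes each way among genes with a log2 mean of at least 6 at the higher time, no overlap of times and 1 direction on all scales, up to 6 called genes per list with the smallest p, and genes whose role defines a list, with 68 further list members and markers chosen after their values were seen. Alternatives were other scalings, filters, probe set rules, a replicate block, separate treatments and leaving out each array. The fit was tested on simulated data. Motifs were searched in RefSeq promoters (GRCm38.p6) of 8865 of 10916 genes. Correlations of the deviations of same-numbered arrays ran from -0.16 to 0.18, which does not settle whether they were paired. Python 3.11.15 was used for tables.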

Additional observations from a re-analysis of the deposited data

Results flagged for a closer look

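Among the 24 genes with the largest changes, each of the 48 groups of 4 arrays was examined for a single array far from the others by Dixon's criterion, and 4 stood apart, where chance gives about 1 in 20 groups. The H1f2 intensity of Antagomir-31 36 h replicate 2 was 234.5, below the 257 to 260 of the other 36 h arrays. The Abcb1a intensity of Antagomir-SCR 36 h replicate 2 was 39.86, above the 32.3 to 32.9 of the others. The Sdr39u1 intensity of Antagomir-31 48 h replicate 2 was 64.57, below the 67.6 to 67.8 of the others. The Sphk1 intensity of Antagomir-31 36 h replicate 2 was 98.48, below the 101.5 to 102.1 of the others.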

How the results depend on the processing

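Time and the set of arrays normalized together cannot be told apart, 2 time points show no course, and small changes depend on the scaling. Of the 317 called genes among the 364 named, 178 were called under each of the 22 alternatives that tested them. Leaving out 1 array gave 2119 to 2357 genes higher and 1784 to 1911 lower, 11 to 14 and 2 to 5 changed by at least 1 on the log2 scale, and 234 to 255 and 121 to 131 by at least 0.5. In the lists, leaving out 1 array gave 16 to 18 falls for the unfolded protein response, 7 to 8 for MAP kinase feedback and 15 to 19 for ribosome biogenesis, and rises of 20 to 22 for the integrated stress response, 8 to 10 for sterol synthesis, 7 to 8 for fatty acid synthesis, 4 to 6 for amino acid transporters, 12 to 16 for quiescence, 12 to 15 for mitosis and 15 to 19 for interferon-stimulated genes. Without a filter on low values 4005 genes were higher and 3672 lower, 35 and 14 by at least 1 and 611 and 472 by at least 0.5. With a mean log2 intensity of at least 6 these were 3 and 1 by at least 1, and 83 and 39 by at least 0.5. In the values as deposited 3313 were lower, 6 of them by at least 1, and 160 higher and 202 lower by at least 0.5, and after median centring 1406 were lower. Within Antagomir-31 there were 1336 higher and 1115 lower, with 5 lower by at least 1, and within Antagomir-SCR 1469 and 1069, where fewer arrays were tested. Percentile ranks left 10 falls of the unfolded protein response, and have no value for a bound on the log2 scale. Within Antagomir-31 there were 13 rises of the integrated stress response and within Antagomir-SCR 8 of quiescence. Falls of ribosome biogenesis numbered 34 as deposited, 12 after median centring, and 5 and 6 within the treatments. Rises of mitosis numbered 9 as deposited, 28 after median centring, 11 without a filter, and 6 and 8 within the treatments, and those of interferon-stimulated genes 10 and 11 within the treatments. The difference between treatments passed for 0 genes in limma under each alternative that gave it. When probe sets ending in _x_at or _s_at were left out, the log2 change turned for Ly6e (-0.0865), Qars (0.005658), Ak4 (0.0676), Ndufv1 (0.00284) and Gins2 (0.06908), and that of Ifng was -0.1108 as deposited. For reversals other than those of probe set choice the cause was not tested. Deviations of same-numbered arrays from their group means had correlations of 0.18 and -0.11 between times and 0.07 and -0.16 between treatments. Each is from 1 pair of arrays, with no known pairs to set beside it, so whether replicate numbers pair the samples cannot be told. The fit with a replicate block called 2446 higher and 2092 lower.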
